A study of Saccharomyces cerevisiae with 11 samples.

Results

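The cytosolic ribosomal protein genes examined here are the 6 budding yeast genes known for promoters bound by Abf1: RPL3 (YOR063W), RPL4A (YBR031W), RPL4B (YDR012W), RPP1A (YDL081C), RPS22B (YLR367W) and RPS28A (YOR167C). They were chosen by gene identifier from the 137 ribosomal protein genes among the 6834 features of the files, and the other 131 ribosomal protein genes served as the background. All 6 genes and all 131 others passed the filter on low counts. Expression was measured by total RNA-seq in 11 libraries. Binding of Abf1 was not measured in these libraries, so the name of the group rests on earlier knowledge of the genes.

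All libraries came from clone A9 of the strain ABF1-aa-V5, whose chromosomal Abf1 is drawn out of the nucleus by rapamycin (8 µg per ml, the anchor-away method), and all groups, the wild-type control included, received the drug. The strain carried a pRS315 plasmid with full-length wild-type Abf1 (n = 2), the empty plasmid (no Abf1, n = 3) or 1 of 3 constructs in which the second intrinsically disordered region of Abf1 was changed: EM shuffle, an inviable construct with its essential motif shuffled (n = 2), LS-15, a viable shuffle (n = 2), and NCS-506, a viable sequence carrying point mutations (n = 2). Cells living on LS-15 or NCS-506 grow slowly. The 3 constructs also lack the first disordered region, which wild-type Abf1 has. Rapamycin lasted 1.25 h in 10 libraries and 1 h in 1 wild-type library, which also stood alone in its labelled batch, so that time and batch cannot be told apart for it. Total counts per library ranged from 920044 to 2195476. Ribosomal protein genes took 8.31% and 8.89% of the counts in the wild-type libraries and 5.05% to 7.64% in the others, and small RNAs took between 15.8% and 29.6%, the most in the 1 h and the least in the 1.25 h wild-type library. The labels name BY4741, a strain of mating type a, but the a-cell genes MFA1, MFA2, STE2 and BAR1 summed to 2.06 to 18.6 CPM (library-normalised counts scaled to a common library size), while the alpha-cell genes MF(ALPHA)1, MF(ALPHA)2 and STE3 summed to 384.6 to 1005 CPM, in each case over all 11 libraries.

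Ribosomal protein genes are among the most highly transcribed genes of growing yeast. Most of their promoters are bound by Rap1, which brings in the regulators Fhl1 and Ifh1. A small class is known to use Abf1 in place of Rap1. Abf1, like Rap1 and Reb1, is an abundant and essential general regulatory factor, a DNA-binding protein that keeps promoters free of nucleosomes.

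The DNA upstream of the 6 genes was read from the S. cerevisiae R64 genome (the build called sacCer3), and 80 bases around each match to the Abf1 consensus are shown here because the match and the bases after it recur among the genes. All lines read 5′ to 3′ on the strand of the gene, and capitals mark the bases that matched, on either strand. The RPL4B line shows a near match, since no full match lay within 1000 bp of its start.
RPL3, chrXV:444421-444500, plus strand: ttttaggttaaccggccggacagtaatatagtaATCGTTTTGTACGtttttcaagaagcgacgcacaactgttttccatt
RPL4A, chrII:299951-300030, plus strand: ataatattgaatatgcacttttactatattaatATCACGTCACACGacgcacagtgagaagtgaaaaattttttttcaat
RPL4B, chrIV:471631-471710, plus strand: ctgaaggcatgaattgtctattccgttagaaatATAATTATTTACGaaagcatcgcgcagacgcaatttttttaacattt
RPP1A, chrIV:310308-310387, minus strand: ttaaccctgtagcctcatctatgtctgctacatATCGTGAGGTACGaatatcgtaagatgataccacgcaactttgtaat
RPS22B, chrXII:855672-855751, plus strand: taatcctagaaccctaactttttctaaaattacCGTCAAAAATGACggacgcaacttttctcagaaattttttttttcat
RPS28A, chrXV:649125-649204, minus strand: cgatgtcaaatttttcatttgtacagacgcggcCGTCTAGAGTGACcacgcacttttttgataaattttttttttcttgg

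Within 400 bp upstream of the annotated gene start, 4 of the 6 genes held a match to the Abf1 consensus, compared with 7 of the 131 other ribosomal protein genes (5.34%) and 15.8% of 6002 protein-coding genes. The matches ended 219 bp (RPL3), 169 bp (RPL4A), 219 bp (RPP1A) and 151 bp (RPS28A) before the gene. RPS22B had its match 724 bp upstream. Within 1000 bp, 24.4% of all protein-coding genes and 14.5% of the other ribosomal protein genes held a match. Only the RPL4A match also met a stricter form of the consensus. That form was present within 400 bp of 8.08% of all genes and 4.58% of the other ribosomal protein genes. The Rap1 pattern ACCCNNACA was found on either strand within 400 bp of 0 of the 6 genes, of 44 of the 131 others (33.6%) and of 4.37% of all genes. For RPL4B, 3 stretches within 400 bp differed from the consensus at 1 of its 8 specified positions, and 65.0% of all promoters held a stretch that matched it fully or differed at 1 position. The stretch shown is the one 176 bp upstream, and it was picked after the sequences were seen.

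After the match, on the strand of the gene, the letters ACGCA followed in all 5 genes with a full match. They began 0 bases (RPL4A), 1 base (RPS28A), 2 bases (RPS22B), 14 bases (RPL3) and 19 bases (RPP1A) past its end, and 14 bases past the near match of RPL4B. Among all genes with a match within 1000 bp, 49 of 1462 (3.35%) had ACGCA within the next 40 bases, and among other ribosomal protein genes 3 of 19 (15.8%) did. A near match or full match within 400 bp followed in this way by ACGCA was present at 2.70% of promoters. This pattern was noticed in the sequences of these genes and is a description of them, not a test. The map of upstream regions places these matches relative to the neighbouring genes. RPL3 and RPS28A have divergent upstream neighbours (YOR062C at 1154 bp and GLN4 at 295 bp), and the neighbours of the other 4 genes point in the same direction as the gene.

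**Figure D1:**
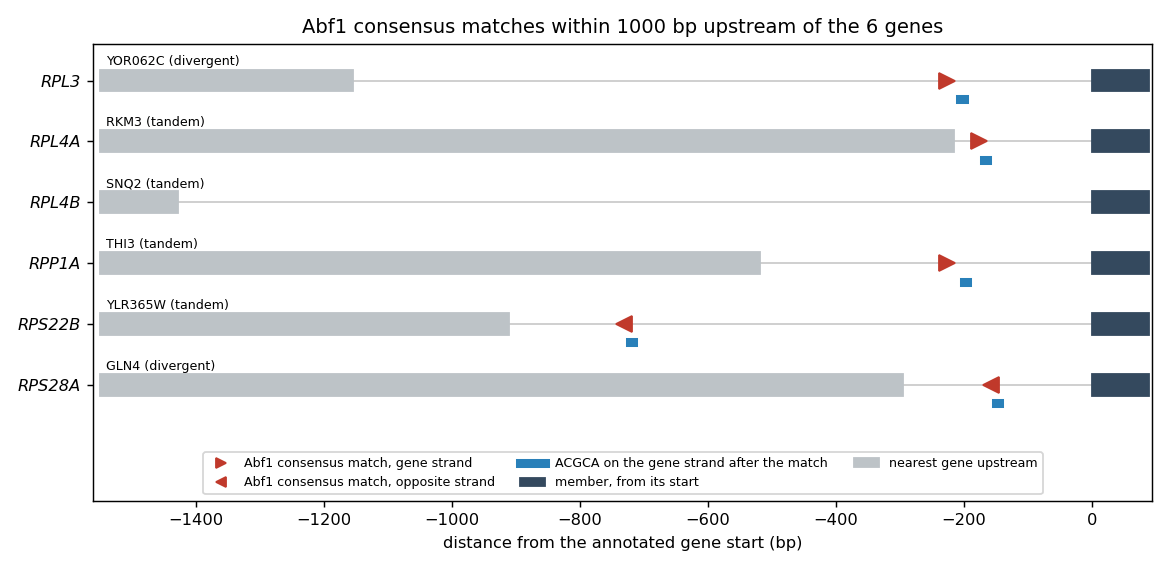
Position of Abf1 consensus matches (red arrowheads, pointing right when on the gene's own strand) and of the following ACGCA (blue bars) relative to the start of each gene, in bp, with the upstream neighbour in grey. Matches lie 151 to 219 bp upstream in RPL3, RPL4A, RPP1A and RPS28A and 724 bp upstream in RPS22B, and RPL4B has none within 1000 bp.

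In cells with wild-type Abf1 the 6 genes spanned a wide range of levels. Per kilobase of coding length, RPL3 was the highest at 3025 ± 612 CPM (SD, n = 2, as for all values in this paragraph), followed by RPP1A (2236 ± 406), RPS28A (1794 ± 272), RPL4A (1209 ± 142), RPL4B (443 ± 28.8) and RPS22B (187 ± 98.3). The ranges given by mean ± SD overlapped between RPL3 and RPP1A and between RPP1A and RPS28A, and were apart for the other neighbours in this order. On the deposited TPM scale the order was different: RPL3 at 83.1 ± 23.0 TPM stood above RPS28A (67.3 ± 25.6), RPL4A (59.6 ± 21.2), RPP1A (37.0 ± 13.2), RPL4B (21.5 ± 8.37) and RPS22B (3.54 ± 0.191). On that scale the ranges overlapped between all neighbours except RPL4B and RPS22B. Relative to counts per kilobase, TPM placed RPL4A and RPL4B higher by 0.72 to 0.94 on the log2 scale than it placed the median gene, and RPP1A lower by 0.39 to 0.76. RPL4A and RPL4B share 98.9% of their coding bases, so reads may be assigned to either copy and the levels of both are uncertain on both scales.

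RPP1A encodes P1 alpha, an acidic protein of the ribosomal stalk, which recruits translation factors to the large subunit. It stood at 809.8 CPM (1 h) and 625 CPM (1.25 h) with wild-type Abf1, and at 185, 164 and 166 CPM in the 3 libraries without Abf1. It reached 213 and 438 CPM with EM shuffle, 155 and 425 CPM in LS-15, and 293 and 349 CPM with NCS-506. Both wild-type libraries were above all 9 others. The 2 LS-15 libraries differed most, with 1 below the no Abf1 libraries and the other next to the higher EM shuffle library. Without Abf1, RPP1A was 4.18-fold lower than with wild-type Abf1, a log2 fold change of −2.06 (SE 0.361, edgeR quasi-likelihood test, Benjamini-Hochberg adjusted p = 0.00257).

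RPL4B and RPL4A encode nearly identical copies of a protein that lines the exit tunnel of the large subunit. RPL4B was at 504 and 460.0 CPM with wild-type Abf1, at 175, 178 and 196 CPM without Abf1, at 247 and 354 CPM with EM shuffle, at 184 and 300.5 CPM in LS-15 and at 246 and 305 CPM with NCS-506. Again both wild-type libraries lay above the other 9, and the no Abf1 libraries lay below both the EM shuffle and the NCS-506 libraries. RPL4B fell by 1.40 on the log2 scale without Abf1, which is 2.63-fold (SE 0.217, edgeR with Benjamini-Hochberg adjusted p = 0.00155). RPL4A was at 1426 and 1207 CPM with wild-type Abf1, at 1025, 1026 and 939.7 CPM without Abf1, at 789 and 1049 CPM with EM shuffle, at 1078 and 986 CPM in LS-15 and at 814 and 994 CPM with NCS-506. Wild-type values were the highest here too, but the other groups overlapped one another. The log2 fold change of RPL4A without Abf1 was −0.40 (SE 0.181, edgeR with Benjamini-Hochberg adjusted p = 0.128).

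The share of RPL4B in the counts of the pair was 26.1% and 27.6% with wild-type Abf1 and 14.6%, 14.8% and 17.3% without Abf1. It was 23.8% and 25.2% with EM shuffle, 23.2% and 23.5% with NCS-506, and 14.6% and 23.4% with LS-15. The wild-type shares exceeded all others, and 1 LS-15 library was as low as those without Abf1. To set aside how the counted reads were divided between the copies, their counts were added. The sum fell by 0.61 on the log2 scale without Abf1 (SE 0.182, edgeR with Benjamini-Hochberg adjusted p = 0.0315). Whether reads that fit both copies were counted at all was not tested. For the constructs the sum gave −0.56 (EM shuffle), −0.50 (LS-15) and −0.61 (NCS-506), none of which passed the threshold (edgeR, adjusted p = 0.164, 0.125 and 0.144).

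RPL3 encodes a large-subunit protein that reaches to the peptidyl transferase centre. Its levels were 4025 and 3018 CPM with wild-type Abf1, 2607, 2516 and 2513 CPM without Abf1, 1856 and 2394 CPM with EM shuffle, 2435 and 2553 CPM in LS-15 and 1905 and 2261 CPM with NCS-506. The 2 wild-type libraries differed by more than any no Abf1 library differed from another, and both were above the 9 other libraries. RPL3 gave a log2 fold change of −0.47 without Abf1 (SE 0.195, edgeR with Benjamini-Hochberg adjusted p = 0.101).

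RPS28A and RPS22B encode proteins of the small subunit. RPS28A was at 405 and 327 CPM with wild-type Abf1, at 209.6, 157 and 173 CPM without Abf1, at 228 and 314 CPM with EM shuffle, at 156 and 208 CPM in LS-15 and at 185 and 219 CPM with NCS-506. Both EM shuffle libraries lay between the wild-type and the no Abf1 libraries, while LS-15 and NCS-506 overlapped with no Abf1. RPS28A was 2.03-fold lower without Abf1 (log2 fold change −1.02, SE 0.200, edgeR with Benjamini-Hochberg adjusted p = 0.00456). RPS22B was the least abundant, with 29 to 120 counts in a library. It stood at 101 CPM in the 1 h and 46.1 CPM in the 1.25 h wild-type library, at 48.1, 41.2 and 55.5 CPM without Abf1, at 34.5 and 34.7 CPM with EM shuffle, at 32.6 and 46.3 CPM in LS-15 and at 35 and 29.5 CPM with NCS-506. The 1 h wild-type library was above all others and the 1.25 h library lay within the range of no Abf1. RPS22B gave a log2 fold change of −0.59 without Abf1 (SE 0.292, edgeR with Benjamini-Hochberg adjusted p = 0.161), and the value turned to 0.06 (adjusted p = 0.895 by the same test) when the 1 h wild-type library was left out. The intron of RPS22B holds the small nucleolar RNA gene SNR44, which was also highest in the 1 h wild-type library (865 CPM) compared with 223 CPM in the other. SNR44 was at 442 to 520 CPM without Abf1 and at 318 to 402 CPM with LS-15. It was at 113 and 151 CPM with EM shuffle and at 92.5 and 129 CPM with NCS-506. These groups also had the lowest means of RPS22B, though the LS-15 library at 32.6 CPM lay below both EM shuffle libraries. Small RNAs together took 29.6% of the counts in the 1 h and 15.8% in the 1.25 h wild-type library. They took 23.0% to 25.4% with no Abf1 or LS-15 and 16.9% to 18.4% with EM shuffle or NCS-506. Whether reads of the intron entered the RPS22B count was not tested.

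**Figure D2:**
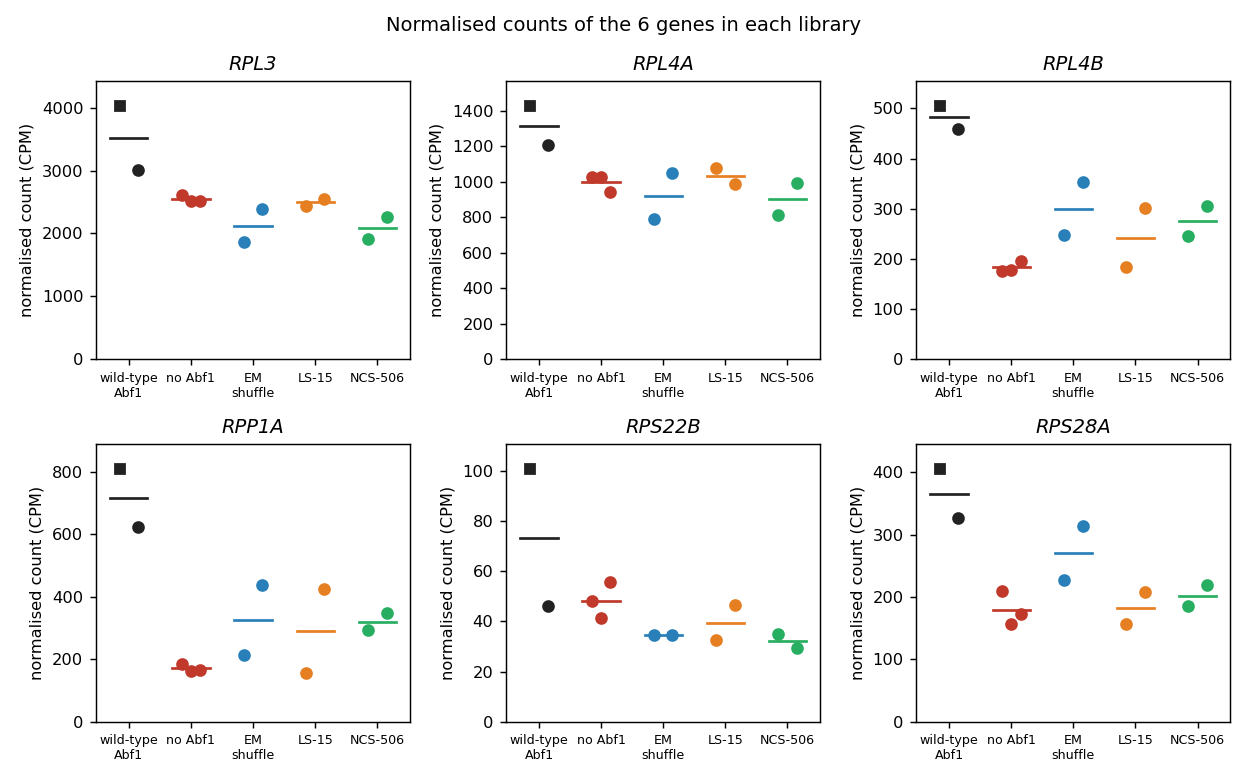
TMM-normalised counts (CPM, axis from 0) of the 6 genes in each of the 11 libraries, with a horizontal line at the group mean; the square is the 1 h wild-type library. Both wild-type libraries lie above all others for RPL3, RPL4A, RPL4B, RPP1A and RPS28A, but not for RPS22B, whose 1.25 h wild-type library is at 46.1 CPM. Taken 1 group at a time, 22.1% to 28% of all features lay below both wild-type libraries in every library of the group. The share that did so in all groups at once was not counted.

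Removing Abf1 thus lowered 3 of the 6 genes, RPP1A, RPL4B and RPS28A, while 13.7% of the 5456 features tested were called lower. In 5 of the 6 genes, all no Abf1 libraries were below both wild-type libraries, as for 28% of all features. The median log2 fold change of the 6 genes was −0.81, beside 0.02 over all features. The other ribosomal protein genes fell as well: 95 of 131 were called lower and 0 higher, all 131 values were below 0, and their median was −0.75. The 6 genes therefore lay on both sides of that median. In the order of the 137 ribosomal protein genes from the lowest fold change, RPP1A was at rank 1, RPL4B at 4 and RPS28A at 18, whereas RPS22B was at rank 100, RPL3 at 123 and RPL4A at 130. The calls for RPL4B and RPP1A stood in all 21 alternatives tried and that for RPS28A in 19. They stood without the 1 h wild-type library, where RPP1A gave −1.87, RPL4B −1.33 and RPS28A −0.86 (edgeR, adjusted p = 0.0161, 0.00948 and 0.0309). With only the 5 libraries of this comparison in the fit, RPL3 and RPL4A were called as well, beside 18.2% of all features called lower in that fit.

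**Figure D3:**
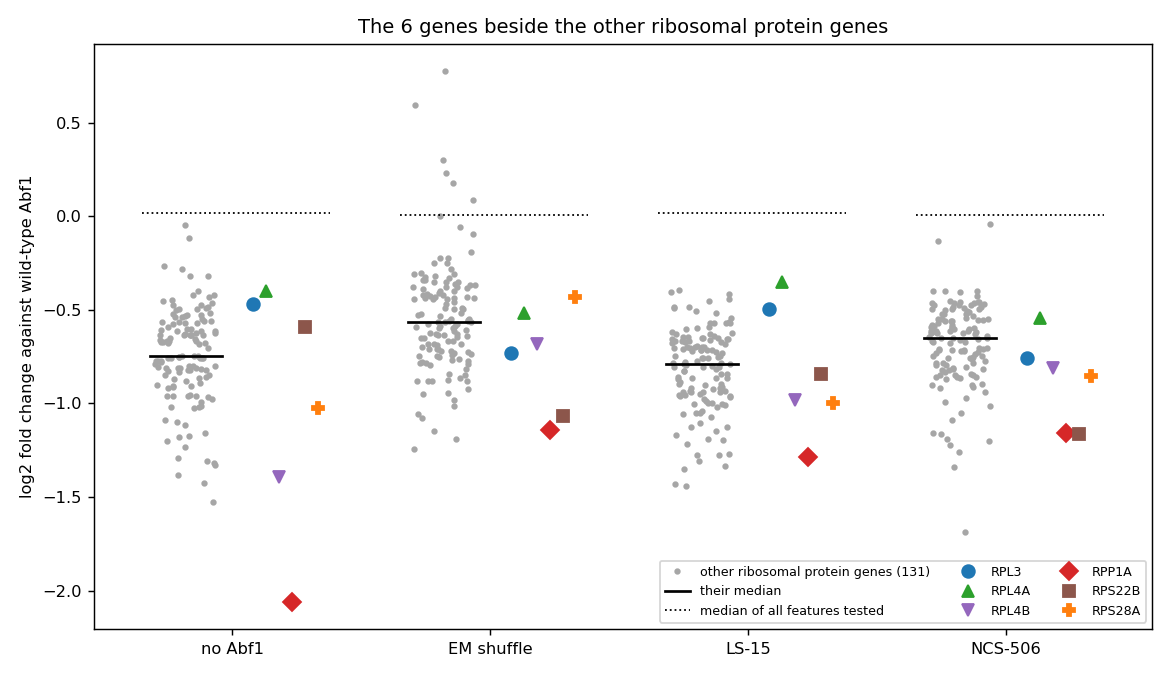
Log2 fold changes against wild-type Abf1 (vertical axis) of the 6 genes (coloured symbols) beside the other 131 ribosomal protein genes (grey) in the 4 groups, with the median of the latter as a solid bar and that of all features tested as a dotted bar. Without Abf1, RPP1A at −2.06 lies below all other ribosomal protein genes, and RPL4A at −0.40 lies near their upper end.

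Among the other ribosomal protein genes, the lowest values without Abf1 were those of RPL22B (−1.53), RPS21A (−1.43) and RPL8B (−1.38), and the highest were RPS20 (−0.27), RPL15B (−0.12) and RPS28B (−0.05). The 7 with an Abf1 match within 400 bp were RPS2 (−0.86), RPS28B (−0.05), RPL15A (−0.66), RPL8B (−1.38), RPL13B (−0.67), RPL43B (−1.09) and RPS21A (−1.43), of which all but RPS28B passed the test (edgeR, Benjamini-Hochberg). The 44 with a Rap1 pattern had a median of −0.75, and 33 of them were called lower.

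Measured against the median of the other ribosomal protein genes in the same library, the 6 genes separated further. From wild-type Abf1 to no Abf1 this relative log2 level moved by −1.34 for RPP1A, by −0.68 for RPL4B and by −0.32 for RPS28A. The difference was positive for RPL3 (0.25), RPL4A (0.31) and RPS22B (0.21). For RPS22B its sign rested on 1 library, since the relative level was −2.56 in the 1 h and −3.43 in the 1.25 h wild-type library, around the no Abf1 values of −2.95 to −2.51. With EM shuffle the difference was −0.61 for RPP1A, −0.35 for RPS22B, −0.12 for RPL3, −0.10 for RPL4B, 0.08 for RPL4A and 0.16 for RPS28A. For RPS22B it again rested on the 1 h wild-type library. Its relative levels with EM shuffle, −3.03 and −3.66, lay on both sides of the 1.25 h wild-type level. These differences describe the group means and were not tested.

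**Figure D4:**
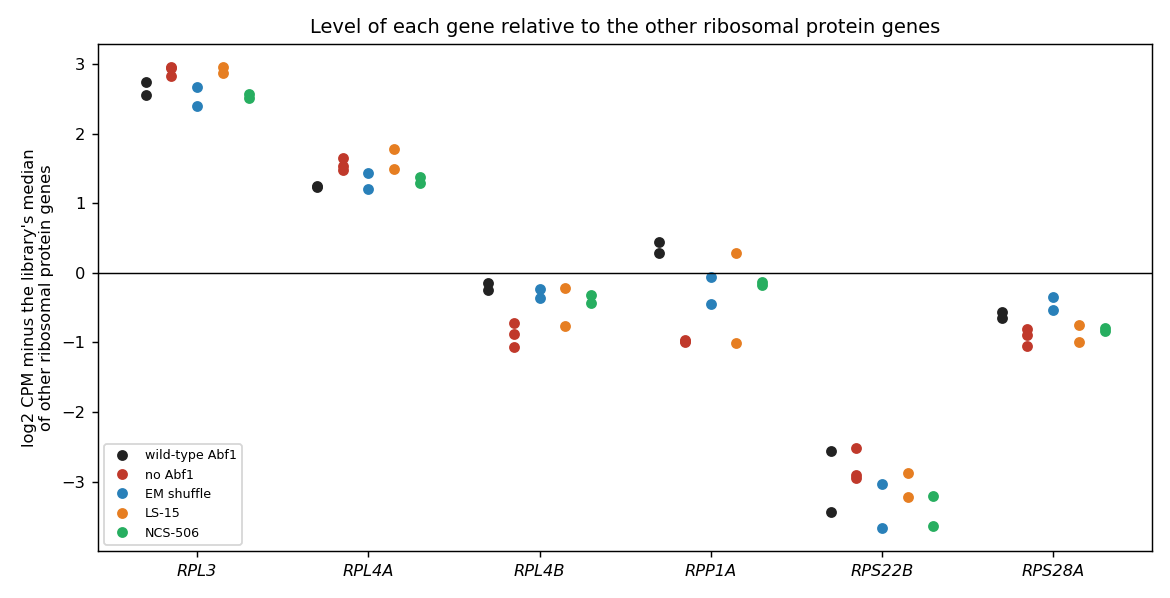
Log2 CPM of each gene minus the median log2 CPM of the other 131 ribosomal protein genes in the same library (vertical axis), with 1 point per library coloured by group. The no Abf1 points of RPP1A and RPL4B lie below the wild-type points, with shifts of the mean of −1.34 and −0.68, while those of RPL4A lie above them (0.31).

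The paralogs and stalk partners of these genes fell in part. RPP1B, the paralog of RPP1A that encodes the stalk protein P1 beta, was lower without Abf1 (−0.99, edgeR adjusted p = 0.0219). So was RPP0, the base of the stalk (−0.68, adjusted p = 0.0283, same test). RPP2A and RPP2B, the P2 proteins, were at −0.57 and −0.61 and did not pass (edgeR, adjusted p = 0.119 and 0.0724). RPP1A gave 68.0% and 61.5% of the RPP1A plus RPP1B counts with wild-type Abf1 and 47.3%, 46.5% and 46.9% without Abf1. RPS22A was at −0.59 (edgeR, adjusted p = 0.0699). RPS28B, with a mean of 14.0 CPM under wild-type Abf1, was at −0.05 (edgeR, adjusted p = 0.957).

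Of 8 tested regulators of ribosomal protein genes, 1 was lower and 2 were higher without Abf1, beside 13.7% and 9.73% of all features. FHL1, whose product binds these promoters together with Ifh1, fell by 1.3 on the log2 scale (edgeR, Benjamini-Hochberg adjusted p = 0.0164). HMO1, a high mobility group protein found at many of these promoters, and REB1 rose by 0.67 and 0.53 (edgeR, adjusted p = 0.0113 and 0.0282). RAP1 was at −0.07, IFH1 at −0.32, SFP1 at 0.44, TBF1 at 0.12 and ABF1 itself at 0.14, none past the threshold. ABF1 reads can come from the tagged chromosomal gene and from the plasmid, so its level is no check of the depletion. RPL13A, whose product is the usual ribosomal anchor in such strains, was at −0.28 (edgeR, adjusted p = 0.241).

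The genes upstream of the 6 moved in different directions. GLN4, divergent from RPS28A, fell by 0.67 (edgeR, adjusted p = 0.00854), while YOR062C, divergent from RPL3, rose by 0.85 (edgeR, adjusted p = 0.0261). RKM3, upstream of RPL4A, was at −0.65, SNQ2, upstream of RPL4B, at 0.49, and THI3, upstream of RPP1A, at −0.02, with no call (edgeR, adjusted p = 0.141, 0.338 and 0.964). YLR365W, upstream of RPS22B, had at most 1 count in a library and was not tested.

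With EM shuffle in place of wild-type Abf1, all 6 genes had lower values and their libraries did not overlap, as for 22.1% of all features in that direction, but none was called, while 1.56% of all features were called lower. The log2 fold changes were −1.14 for RPP1A (95% interval −2.0 to −0.28), −1.07 for RPS22B (−1.75 to −0.39), −0.73 for RPL3 (−1.20 to −0.26), −0.68 for RPL4B (−1.20 to −0.17), −0.52 for RPL4A (−0.95 to −0.08) and −0.43 for RPS28A (−0.91 to 0.04). By edgeR 5 of the 6 had an unadjusted p under 0.05, and DESeq2 called 1, RPL3, beside 2.57% of all features called lower. Of the other ribosomal protein genes 12 of 131 were called lower (0 to 83 on leaving out 1 library), with a median of −0.57 beside −0.71 for the 6 genes. All 6 genes were higher in the second EM shuffle library than in the first, and ribosomal protein genes together took 7.64% of its counts compared with 5.73%. Without that second library, RPL3, RPL4B and RPP1A were called, beside 3.76% of all features. Without the 1.25 h wild-type library, RPL3 and RPS22B were called, beside 2.78% of all features. The RPS22B value was −0.42 without the 1 h and −1.54 without the 1.25 h wild-type library.

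With LS-15, RPL4B and RPS28A were called lower than with wild-type Abf1, 2 of the 6 genes beside 6.76% of all features. The values were −0.98 for RPL4B (SE 0.240) and −1.0 for RPS28A (SE 0.223, edgeR with Benjamini-Hochberg adjusted p = 0.0285 and 0.0228). RPP1A gave −1.29 (95% interval −2.15 to −0.42, edgeR adjusted p = 0.0570), RPS22B −0.84, RPL3 −0.50 and RPL4A −0.35. DESeq2 called RPP1A too (adjusted p = 0.0149), 3 of the 6 genes beside 7.48% of all features, as did edgeR on protein-coding genes only and with at least 1 count in any library (adjusted p = 0.0483 and 0.0225). The RPP1A value ranged from −2.22 to −0.75 on leaving out 1 library. The RPS22B value was −0.19 without the 1 h wild-type library and −1.32, then called, without the 1.25 h one. In 5 of the 6 genes the libraries did not overlap, as for 27.5% of all features in that direction. Of the other ribosomal protein genes 79 of 131 were called lower (0 to 115 on leaving out 1 library), with a median of −0.79 beside −0.91 for the 6 genes. Both calls were lost without the 1 h wild-type library and without the first LS-15 library. In those fits fewer of all features were called lower as well. The RPL4B call was also lost without the 1.25 h wild-type library. It was lost too without any one of the no Abf1 libraries, beside 3.38% to 3.75% of all features called lower. On leaving out 1 library, the log2 fold changes ranged from −1.40 to −0.68 for RPL4B and −1.24 to −0.82 for RPS28A.

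NCS-506 gave lower values than wild-type Abf1 in all 6 genes with no overlap of libraries, as for 25.1% of all features, and again none was called beside 0.532% of all features. The log2 fold changes were −1.16 for both RPP1A (95% interval −2.02 to −0.30) and RPS22B (−1.85 to −0.48), −0.86 for RPS28A (−1.33 to −0.38), −0.81 for RPL4B (−1.32 to −0.29), −0.76 for RPL3 (−1.23 to −0.29) and −0.54 for RPL4A (−0.98 to −0.11). All 6 had an unadjusted p under 0.05 by edgeR, and DESeq2 called 4, RPL3, RPL4B, RPP1A and RPS28A, beside 2.95% of all features called lower. Of the other ribosomal protein genes 7 of 131 were called lower (0 to 83 on leaving out 1 library), with a median of −0.65 beside −0.83 for the 6 genes. With either EM shuffle library left out alone, more of the 6 genes were called, and so were more of all features. With only the NCS-506 and wild-type libraries in the fit, 0 of the 6 genes were called, beside 0.0374% of all features called lower. Without the 1.25 h wild-type library 2 were called, RPL3 and RPS22B, beside 2.42% of all features. The RPS22B value was −0.51 without the 1 h and −1.63 without the 1.25 h wild-type library. The 4 comparisons with wild-type Abf1 share the same 2 control libraries.

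The constructs were next compared with no Abf1, which asks how far each kept these genes above the level of cells without Abf1. EM shuffle was higher for RPL4B by 0.71 on the log2 scale (SE 0.218, edgeR with Benjamini-Hochberg adjusted p = 0.0357), 1 call of 6 beside 12.9% of all features in that direction. RPP1A gave 0.92 (95% interval 0.13 to 1.71, edgeR adjusted p = 0.0835) and RPS28A 0.59 (0.15 to 1.03, adjusted p = 0.0507). In these 3 genes the EM shuffle libraries were all above those without Abf1, as for 27.1% of all features. RPS22B and RPL3 were below them with no overlap, as for 26.1% of all features, at −0.48 and −0.26, and RPL4A was at −0.12. The RPL4B call was lost without the second EM shuffle library, without any one of the no Abf1 libraries, and on rescaled TPM, where RPS28A was called in its place. On leaving out 1 library, the log2 fold changes ranged from 0.43 to 0.95 for RPL4B, from 0.31 to 1.35 for RPP1A and from 0.34 to 0.80 for RPS28A.

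LS-15 was called different from no Abf1 in none of the 6 genes and in 0% of all features. By edgeR 0 of the 6 had an unadjusted p under 0.05, and DESeq2 called 0. RPP1A gave 0.78 (95% interval −0.02 to 1.57) and RPL4B 0.42 (−0.07 to 0.90), and the libraries overlapped in all 6 genes. The absence of calls does not show equal levels, since RPP1A ranged from −0.14 to 1.31 on leaving out 1 library. NCS-506 was called different from no Abf1 in none of the 6 beside 3.19% of all features. RPP1A gave 0.90 (0.11 to 1.69) and RPL4B 0.59 (0.11 to 1.06), the 2 genes with an unadjusted p under 0.05 by edgeR, and DESeq2 called 0. Their NCS-506 libraries were above all those without Abf1, as for 22.9% of features, while those of RPL3 and RPS22B were below, again as for 22.9%.

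**Figure D5:**
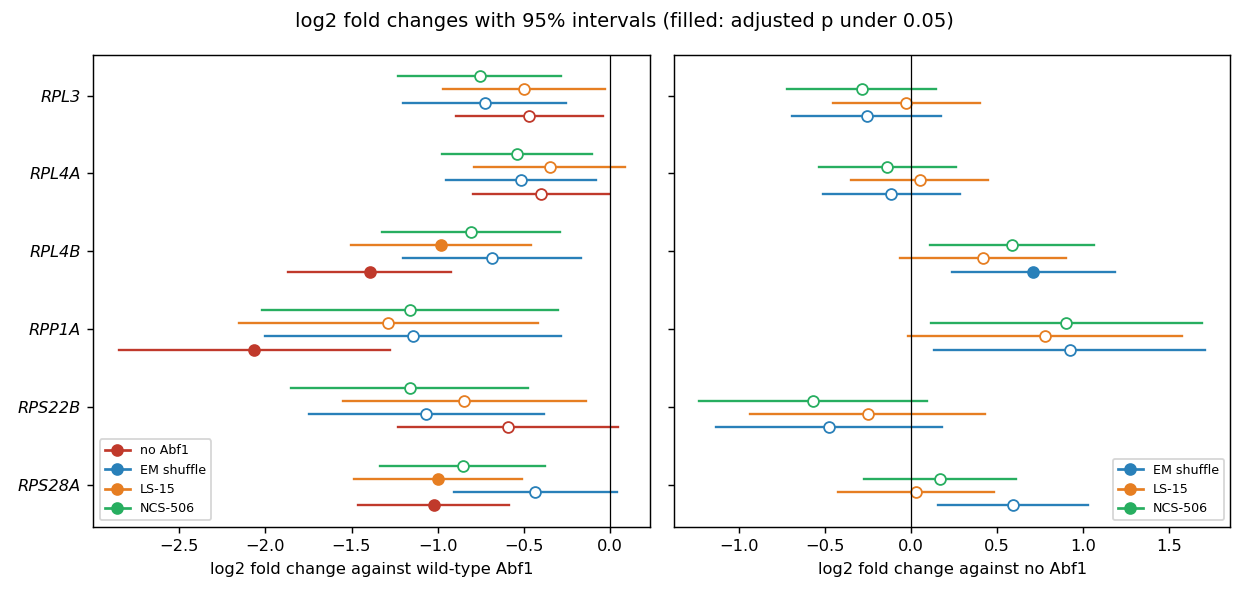
Log2 fold changes of the 6 genes against wild-type Abf1 (left) and against no Abf1 (right), with 95% intervals from the edgeR fit and filled symbols where the adjusted p was under 0.05. RPL4B, RPP1A and RPS28A are filled for no Abf1 on the left, RPL4B and RPS28A for LS-15, and RPL4B for EM shuffle on the right.

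Between the constructs, none of the 18 tests over the 6 genes and 3 pairs passed (5.5% of all features between EM shuffle and LS-15, and 0% for each of the other pairs). The edgeR test gave 1 unadjusted p under 0.05, for RPS28A in EM shuffle against LS-15 (0.56, 95% interval 0.08 to 1.05), and DESeq2 called 0. For RPP1A the intervals reached from −0.71 to 1.00 (EM shuffle against LS-15), from −0.83 to 0.87 (EM shuffle against NCS-506) and from −0.98 to 0.73 (LS-15 against NCS-506), so that differences of nearly 2-fold in either direction cannot be told from 0 in these libraries. In the order of group means for RPP1A, wild-type Abf1 (718 ± 130 CPM) was followed by EM shuffle (326 ± 159), NCS-506 (321 ± 39.3), LS-15 (290.3 ± 191) and no Abf1 (172 ± 12, SD), and no neighbouring pair in this order passed the test. For RPS28A the order was wild-type Abf1 (366 ± 55.6 CPM), EM shuffle (271 ± 60.7), NCS-506 (202 ± 23.9), LS-15 (182 ± 36.4) and no Abf1 (180 ± 26.8), likewise with no neighbouring pair past the threshold.

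The features with the most similar course over the 11 libraries were found for each gene by the root mean square difference of log2 CPM, each feature centred on its own mean. RPL3 was closest to RPL9A (0.08), RPL30 and RPL4A. RPL4A was closest to DED1 (0.08), TEF1 and PDC1, which encode an RNA helicase, a translation elongation factor and pyruvate decarboxylase. For RPL4B they were TRP2 (0.13), RPL8B and FRS1, and for RPP1A they were URA5, HBS1 and NCL1, each at 0.25. RPS22B was closest to HRT1 (0.16), RPS12 and RPL38, and RPS28A to HNM1, RPS18B and RPS10A, each at 0.13. These are descriptions over libraries that share the same groups.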

How the data were processed

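Directional total RNA libraries were mapped by the authors with STAR (genome sacCer3, R64-1-1) and quantified by RSEM, versions not given in the sources used here. They deposited whole-number counts, not normalised, and TPM. Use of strand in counting is not given, which leaves overlapping genes uncertain. Counts were fitted with edgeR 4.0.16 in R 4.3.3 (TMM, filterByExpr, quasi-likelihood test over all 11 libraries, Benjamini-Hochberg adjustment over 5456 features, threshold 0.05). Independent clones served as replicates. CPM used TMM factors, and log2 CPM a prior count of 2. Alternatives were DESeq2 1.42.0, limma 3.58.1 (TPM on a log2 scale, pseudocount 1 or 0.1), other scalings and filters, only the groups compared, a replicate block, and leaving out each library. The named genes were the 6 genes, their paralogs and stalk partners, the extremes of the other ribosomal protein genes, known regulators, upstream neighbours, SNR44, RPL13A and the 3 nearest features. The other ribosomal protein genes with an Abf1 match, and the ACGCA letters, were added after values were seen. Of 6834 features, 5991 matched the RefSeq annotation. The fit was tested on simulated data. Members and lists were chosen with earlier results of these data known. CRF1, a regulator on the list, had too few counts to be tested.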

Additional observations from a re-analysis of the deposited data

How the results depend on the processing

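Counts of the 6 genes called moved as follows, in log2 fold changes where values are given. Without Abf1 against wild-type Abf1 the count was 5 when only the groups compared were fitted. For EM shuffle against wild-type Abf1 it was 1 by DESeq2 and 0 to 3 on leaving out 1 library, and for NCS-506 4 by DESeq2 and 0 to 5. For LS-15 against wild-type Abf1 it was 0 on every TPM scale and with only the groups compared. Of all features, 0.0367% were called lower with TPM + 1 and with TPM + 0.1, and 0.0733% on rescaled TPM. With only the groups compared 0% were called lower. The count was 3 by DESeq2 (7.48% of all features called lower), on protein-coding genes only (7.8%) and with at least 1 count in any library (6.87%). It also changed on leaving out 1 library. For EM shuffle against no Abf1 it was 5 on both TPM scales, where 73.2% and 69.4% of all features were called higher. It was 2 with at least 10 counts in every library (12.5% of all features called higher) and 3 with at least 1 count in any (11.2%). With only the groups compared it was 2 (11.6%). In the 9 numbered libraries without a block, chosen after seeing the data, it was also 2 (13.3%). This count changed on leaving out 1 library as well. For NCS-506 against no Abf1 it was 5 on both TPM scales, beside 78.7% and 74.1% of all features called higher, and 2 with only the groups compared, beside 9.87%. Pairs of constructs gave 2 on both TPM scales, where 43.2% and 24.5% of all features were called between EM shuffle and LS-15. In the other pairs at most 0.0183% of all features were called on those scales. The count for the pairs also changed on leaving out 1 library. The cause was not tested.

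The TPM scale itself moved the median of all features, by 0.59 (TPM + 1) and 0.96 (TPM + 0.1) for EM shuffle and 0.56 and 0.94 for NCS-506 against wild-type Abf1, and by 0.63 and 1.05, and 0.64 and 1.02, against no Abf1. With it the sign turned for EM shuffle against wild-type Abf1 in RPL3 (0.33 and 0.33), RPL4A (0.39 and 0.40), RPL4B (0.22 and 0.23) and RPS28A (0.64 and 0.65), and for NCS-506 in RPL3 (0.28 and 0.28), RPL4A (0.36 and 0.36), RPL4B (0.13 and 0.14) and RPS28A (0.21 and 0.21), all below the shift of the median except RPS28A with EM shuffle on TPM + 1. Against no Abf1 it turned for EM shuffle in RPL3 (0.85 and 0.86), RPL4A (0.89 and 0.90) and RPS22B (0.41 and 0.53), for LS-15 in RPL3 (0.26 and 0.26) and for NCS-506 in RPL3 (0.80 and 0.81), RPL4A (0.85 and 0.86) and RPS22B (0.34 and 0.44). On TPM rescaled to equal sums, an alternative chosen after seeing the data, it turned for EM shuffle in RPL3 (0.14) and RPL4A (0.18), for LS-15 in RPL3 (0.14) and for NCS-506 in RPL3 (0.29) and RPL4A (0.34). The sum of RPL4A and RPL4B gave 0.047 for EM shuffle against no Abf1, against −0.12 for RPL4A alone.

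On leaving out 1 library, values without Abf1 against wild-type Abf1 ranged from −1.06 to 0.062 for RPS22B. Against no Abf1 they ranged from −0.34 to 0.072 for RPL4A with EM shuffle, and with LS-15 from −0.062 to 0.0053 for RPL3, −0.015 to 0.11 for RPL4A, −0.14 to 1.31 for RPP1A and −0.20 to 0.21 for RPS28A. The labels do not say what a replicate number shares. Deviations of same-numbered libraries correlated at 0.18 to 0.37 in the 6 pairs between constructs, and at −0.16 to −0.05 in the 6 pairs with no Abf1, so not every pair passed 0.1. Each construct had 2 libraries, whose deviations from their mean are mirror images. Both pairs of any 2 constructs therefore gave the same value. The replicate block called none of the 6 genes between constructs, as without it. It gave −0.025 for RPS28A in LS-15 against no Abf1 and kept 1 call for EM shuffle. Other ribosomal protein genes called without Abf1 numbered 95 in the main fit, beside 13.7% of all features called lower. They numbered 8 and 10 on the TPM scales, beside 2.99% and 3.65% of all features called lower. On rescaled TPM they numbered 14, beside 4.25%. Their number also changed on leaving out 1 library.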

Other observations

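Outside the 6 genes, 41 tested genes had an Abf1 consensus match within 1000 bp upstream that was followed by ACGCA within 40 bases. Without Abf1, 18 of them were called lower and 2 higher than with wild-type Abf1 (edgeR, Benjamini-Hochberg), with a median log2 fold change of −0.41. The 1319 tested genes with a match but no such ACGCA had a median of −0.35, with 440 called lower and 90 higher. With LS-15 the counts were 8 lower and 1 higher of the 41, with a median of −0.35, and 199 lower and 45 higher of the 1319, with a median of −0.29. The pattern was noticed in the sequences of the 6 genes, and the lists are described without a test of their difference.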
